A study of Mus musculus with 8 samples.

Results

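The genes described here were the ligands and receptors of the vascular endothelial growth factor (VEGF) family, defined by name: 10 genes of the 46517 in the count table, all of them detected. They comprised 5 ligand genes (*Vegfa*, *Vegfb*, *Vegfc*, *Vegfd* and *Pgf*), 3 receptor tyrosine kinase genes (*Kdr*, *Flt1* and *Flt4*) and 2 neuropilin genes (*Nrp1* and *Nrp2*). They were followed through 3491 single cells from livers of healthy adult C57BL6 mice, which the authors had placed in 4 classes: endothelial, mesenchymal, immune and epithelial cells. Cells were sorted into plates and sequenced by Smart-seq2, which reads along the length of the transcript without molecular identifiers, so all intervals and detection limits cover counting error only. Endothelial cells were sorted with antibodies to PECAM1 or VE-cadherin or by a *Cldn5*-GFP reporter, cholangiocytes with EPCAM, Kupffer cells with CD68, hepatocytes without enrichment, and mesenchymal cells by reporters driven from *Pdgfrb*, *Pdgfra* or *Acta2*. The number of cells of a type therefore reflects the sort and not the tissue.

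Male and female cells of each class formed 8 pools, which are the samples of the series. Endothelial cells numbered 655 in the male and 451 in the female pool, mesenchymal cells 998 and 339, immune cells 255 and 396, and epithelial cells 358 and 39. Median counts per cell ranged over the pools from 88932 in female epithelial cells to 321121 in female mesenchymal cells. The 22 plates each held 1 sex, and a single plate gave the whole female mesenchymal pool. Each class had 1 pool per sex, so no difference between the sexes was tested, and because the labels do not name the mice, p-values measure only the spread between these pools. The classes were drawn from these transcriptomes, so differences between them are partly built in. Levels of 8 endothelial marker genes, with *Pecam1* and *Cldn5* of the sort among them, describe the classes and do not check them. All 8 were detected in every class pool. Their summed level was 11548 and 11900 CPM (counts scaled to a common total per sum) in the male and female endothelial pools and between 145 and 731 CPM in the other pools. The highest of these other values, in female immune cells, included the 20 female cells of community cluster #i9c, which the authors labelled Cont and which had 5243 CPM of these markers.

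VEGF-A is the principal signal for blood vessel growth and acts through KDR, the main signalling receptor of blood endothelium. FLT1 binds VEGF-A, VEGF-B and placental growth factor (PGF) with high affinity, signals weakly and can hold ligand away from KDR, while VEGF-C and VEGF-D act on FLT4, the receptor best known from lymphatic vessels. The neuropilins are coreceptors that bind both VEGFs and class 3 semaphorins. In liver, sinusoidal endothelial cells are fenestrated and known to depend on VEGF signals from neighbouring cells.

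The genes lie apart in the mouse genome (GENCODE vM21, GRCm38). *Kdr* (chr5:75932827-75978458) and *Flt1* (chr5:147561604-147726011) are on the same chromosome and strand, and *Flt4* is at chr11:49609263-49652739. *Vegfc* (chr8:54077606-54187096) and *Nrp1* (chr8:128358604-128503363) share another chromosome, and *Vegfd* is X-linked. The summed exons of the receptor kinases measure 8232 to 13504 bases and those of the ligands 1605 to 4285 bases, so levels were compared between genes per kilobase of exon. *Nrp1* was the only member whose exons share bases with another gene, 80 bases with *Mir1903*.

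The sequences before the RefSeq starts of the 3 receptor kinase genes are shown because the endothelial comparisons turn on these genes. The GENCODE start of *Flt4* (49609263) lies further out, so its window is inside the gene as placed above. Each run is the 250 bases before the RefSeq start (GRCm38.p6), 5′ to 3′ on the gene's strand. Capitals mark any match, on either strand, to CCGGAA or CAGGAA, which are extended forms of the GGAA core bound by ETS factors.
Kdr (chr5:75978456-75978705, minus strand): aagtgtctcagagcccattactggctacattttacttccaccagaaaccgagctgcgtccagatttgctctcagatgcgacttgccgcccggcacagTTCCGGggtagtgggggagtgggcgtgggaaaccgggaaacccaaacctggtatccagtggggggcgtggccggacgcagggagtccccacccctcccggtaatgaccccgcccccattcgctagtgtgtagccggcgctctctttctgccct
Flt1 (chr5:147726012-147726261, minus strand): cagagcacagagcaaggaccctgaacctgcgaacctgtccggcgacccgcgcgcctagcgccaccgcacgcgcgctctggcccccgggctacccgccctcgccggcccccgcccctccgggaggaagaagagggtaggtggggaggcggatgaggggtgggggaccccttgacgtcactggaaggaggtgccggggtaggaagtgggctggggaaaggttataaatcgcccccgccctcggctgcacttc
Flt4 (chr11:49609429-49609678, plus strand): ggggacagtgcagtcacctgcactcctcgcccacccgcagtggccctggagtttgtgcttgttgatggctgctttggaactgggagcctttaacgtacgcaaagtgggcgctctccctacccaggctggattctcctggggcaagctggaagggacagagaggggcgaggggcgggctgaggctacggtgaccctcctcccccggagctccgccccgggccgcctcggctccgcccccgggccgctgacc
The *Kdr* window held 1 match, at position -153 from the start, and the windows of *Flt1* and *Flt4* held none. Both of the latter windows do hold GGAA with other letters before it. Over all windows of this length, 35.1% of 32851 promoters held a match, as did 3 of the 12 windows of the 10 members (1 each of *Vegfa*, *Kdr* and *Nrp2*, where *Vegfa* and *Pgf* have 2 windows each). The letters ACGTG or GCGTG, core of the hypoxia response element, were found in 7 of the 12 windows and in 38.6% of all promoters. The SOX letters ACAAAG or ACAATG were found in 0 of the 12 windows and in 25.2% of all promoters. The windows of *Nrp1* and *Pgf* and 1 of *Vegfa*, with hypoxia matches among them, also lie inside their genes by the GENCODE coordinates. These are descriptions of letters in a window and say nothing of binding.

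Levels below are CPM of the counts summed over the cells of a pool. In such a sum, more cells with a transcript and more transcript per cell cannot be told apart, so shares of cells are given beside it. The first question was which class carried each member. The receptors and coreceptors were endothelial: all 5 were higher in endothelial cells than in the mean of the other classes. *Kdr* had 1853 and 1332 CPM in the male and female endothelial pools and 8.03 to 47.6 CPM in the 6 others. *Flt4* had 817 and 568 CPM against 3.01 to 25.1 CPM. No pool of another class came near the endothelial pools for either gene.

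*Flt1* stood at 720 and 710 CPM in endothelial cells, at 87.9 and 63.9 CPM in mesenchymal cells and at 5.07 to 14.7 CPM elsewhere. *Nrp1* was the most widely shared member, with 1523 and 1159 CPM in endothelial, 378 and 298 CPM in mesenchymal, 143 and 192 CPM in immune and 35.2 and 20.6 CPM in epithelial cells. *Nrp2* had 309 and 284 CPM in endothelial cells and 6.41 to 30.5 CPM in the rest. The endothelial pools lay above all others for all 5 genes.

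The log2 difference of endothelial cells from the other classes was 5.97 ± 0.52 (SE) for *Kdr*, 6.13 ± 0.54 for *Flt4* and 5.17 ± 0.36 for *Flt1*, with adjusted p of 0.00105, 0.00104 and 0.000518 (edgeR quasi-likelihood test with Benjamini-Hochberg adjustment over 24046 genes, n = 2 pools per class). It was 3.43 ± 0.33 for *Nrp1* and 4.49 ± 0.41 for *Nrp2*, with edgeR adjusted p of 0.00141 and 0.00124. Calls required an adjusted p below 0.05 together with a log2 difference of 1 or more, and 5.33% of all genes tested were called higher in endothelial cells by the same rule. None of the 5 ligands was called by edgeR in this comparison, although 3 had an unadjusted p under 0.05 (*Vegfc*, 2.72, *Pgf*, -2.64, and *Vegfd*, -2.52). DESeq2 called *Pgf* (-2.72) and *Vegfd* (-2.57) lower, all 3 ligands were called without the filter on low counts (2.74, -2.64 and -2.51), *Vegfc* without the male (4.37) or female (2.39) immune pool, and *Vegfd* without the female immune pool (-2.77). All 5 receptor calls were kept when any 1 of the 8 pools was left out. Per kilobase of exon, the level in male and female endothelial cells was 205 and 147 CPM for *Kdr*, 156 and 118 CPM for *Nrp1*, 99.3 and 69.0 CPM for *Flt4*, 53.3 and 52.6 CPM for *Flt1* and 26.1 and 24 CPM for *Nrp2*. The order of the 5 receptors was the same in both pools.

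Shares of single cells were set beside these sums. At least 20 counts of *Kdr* were found in 81.3% of endothelial cells (899 of 1106, exact 95% interval 78.9 to 83.5%), and in 1.65% of mesenchymal, 4.45% of immune and 1.51% of epithelial cells. For *Flt4* the shares were 66.8%, 0.673%, 2.30% and 0.756%. A single count was a poor sign of expression, since at least 1 count of *Kdr* was found in 57.9% of immune and 27.2% of epithelial cells against 97.5% of endothelial cells. For this reason shares below use 20 counts. Mesenchymal cells held *Nrp1* at this limit in 45.3% and *Flt1* in 14.3% of cells.

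**Figure D1:**
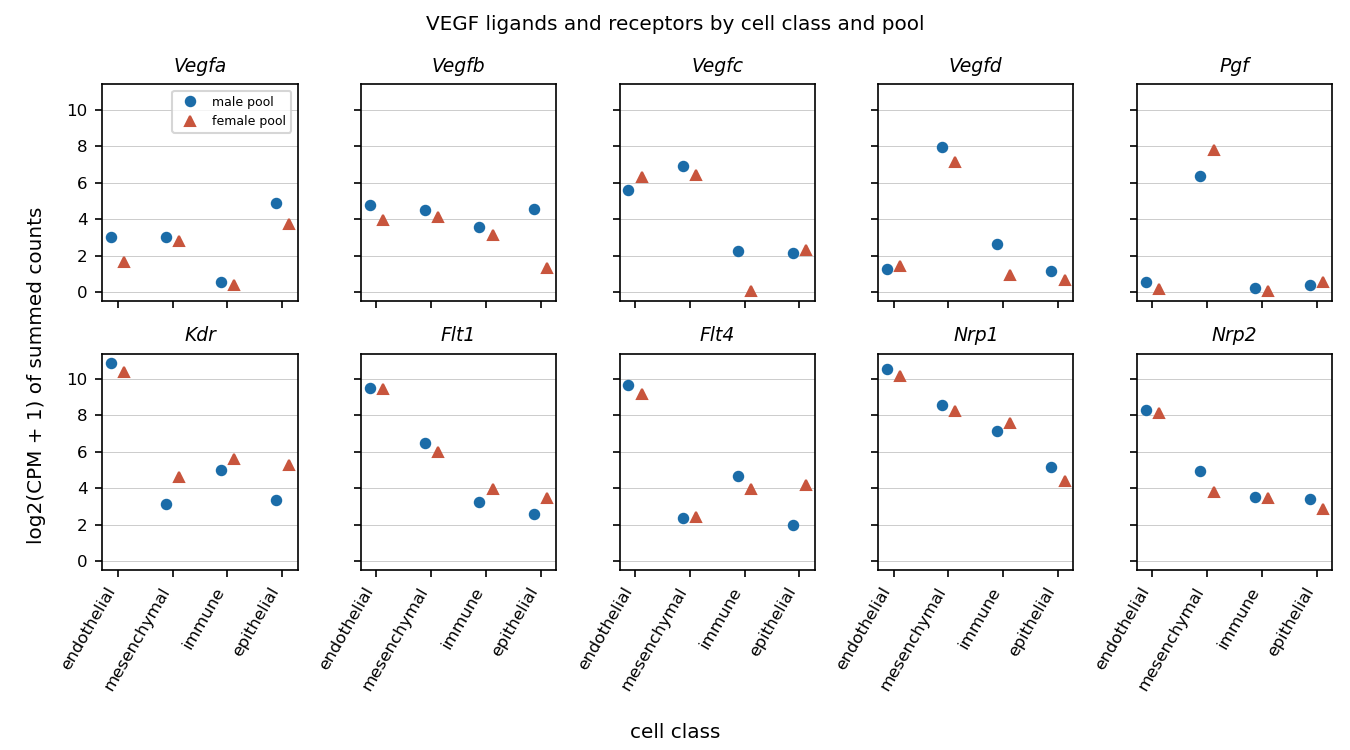
Level of each VEGF gene, as log2(CPM + 1) of summed counts, in the 4 cell classes, with 1 point per pool (circles male, triangles female). The 5 receptors and coreceptors in the lower row are highest in both endothelial pools, while *Vegfd* and *Pgf* in the upper row are highest in both mesenchymal pools.

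The ligands had other sources. *Vegfd* had 247 and 139 CPM in the male and female mesenchymal pools and at most 5.29 CPM in any other pool. *Pgf* had 82.8 and 221 CPM in mesenchymal cells and at most 0.514 CPM elsewhere, so that neither gene's mesenchymal values overlapped those of other classes. *Vegfc* had 119 and 86.0 CPM in mesenchymal cells, 47.1 and 79.9 CPM in endothelial cells and at most 4.06 CPM in immune and epithelial cells.

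In mesenchymal cells against the other classes, 3 members were called higher, where 9.47% of all genes were, and 2 were called lower, where 2.33% of all genes were. The log2 differences were 9.26 ± 0.68 for *Pgf*, 6.87 ± 0.65 for *Vegfd* and 3.78 ± 0.94 for *Vegfc*, with edgeR adjusted p of 0.000299, 0.000655 and 0.0354. The genes called lower were *Kdr*, at -2.85 ± 0.66, and *Flt4*, at -3.50 ± 0.71, with edgeR adjusted p of 0.0271 and 0.0151. The *Vegfc* call was lost when any 1 endothelial, epithelial or mesenchymal pool was left out (3.48 to 4.07). The *Kdr* call was lost without the male endothelial pool (-2.77) or the male mesenchymal pool (-2.27), and the *Flt4* call without the male (-3.48) or female (-3.46) mesenchymal pool or without #i9c (-3.30, a choice made after seeing the data). *Vegfd* reached 20 counts in 33.1% of mesenchymal cells (443 of 1337), *Vegfc* in 22.5% and *Pgf* in 16.2%. In endothelial cells the corresponding shares were 0.542%, 7.05% and 0.0904%.

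*Vegfa*, the best known of the ligands, was low throughout this data set. It had 28.4 and 12.5 CPM in the male and female epithelial pools, 7.09 and 2.21 CPM in endothelial, 7.25 and 6.15 CPM in mesenchymal and 0.500 and 0.306 CPM in immune cells. Per plate, its epithelial level ranged from 0 to 69.4 CPM, with a median of 1.14 CPM over 8 plates. The plate medians were 5.98 CPM in mesenchymal, 1.24 CPM in endothelial and 0.332 CPM in immune cells. Only 1 of 39 female epithelial cells reached the count limit used for shares, for any ligand. As pool sums, the epithelial values lay above all others. *Vegfb* showed no such order, with 26.6 and 14.9 CPM in endothelial, 21.6 and 16.9 CPM in mesenchymal, 10.9 and 7.83 CPM in immune and 22.4 and 1.56 CPM in epithelial cells, and it was called in none of the 4 class comparisons.

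*Vegfa* was the only member called higher in epithelial cells (log2 difference 3.10 ± 0.67, edgeR adjusted p = 0.0198), where 8.37% of all genes were. The call was lost without the male epithelial pool (2.25), without the female endothelial pool (2.97) or without either mesenchymal pool (3.23 without the male and 3.03 without the female). Called lower in epithelial cells were *Nrp1* (-3.97 ± 0.47), *Flt1* (-3.62 ± 0.49), *Vegfd* (-3.31 ± 0.84) and *Nrp2* (-2.37 ± 0.52), against 4.05% of all genes. For *Nrp2* the call was lost without any 1 endothelial or epithelial pool (-1.99 to -2.85) and without #i9c (-1.83), and for *Vegfd* without any 1 pool other than the immune pools (-2.87 to -4.16) and without #i9c (-2.24) or with thinned cells (-2.43). *Kdr* and *Flt4* were called lower in epithelial cells with DESeq2, without the filter on low counts, per plate and without the female epithelial pool (-2.04 to -3.90 and -1.95 to -3.63). *Kdr* was also called without the male mesenchymal pool (-2.32). *Vegfc* was called lower without the filter (-2.69), per plate (-4.48) and without the female immune pool (-2.99). *Pgf* was called lower with DESeq2 (-2.21) and without the filter (-2.27). In immune cells 3 members were called lower, where 5.25% of all genes were: *Flt1* (-2.56 ± 0.46), *Pgf* (-4.33 ± 0.88) and *Vegfa* (-4.32 ± 0.98). Of these, *Flt1* was lost without the male immune pool (-2.25), *Pgf* without the female immune (-3.79) or female mesenchymal pool (-4.06) or without #i9c (-4.73), and *Vegfa* without either immune pool (-4.73 without the male and -4.11 without the female) or without the male mesenchymal pool (-4.32).

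The endothelial receptors were then followed along the vessel tree. The authors' multilevel clusters run, in their portal to central order, from portal vein cells (#e2) through #e5, e8, e3, e6 and e7 to central vein cells (#e1), with lymphatic cells in #e4. Their annotation places #e7 with the central vein, and the comparison of sinusoidal cells below counts it as sinusoidal. Because the clusters were drawn from these transcriptomes, differences between them are partly built in. Several sums are small: 6 female cells in #e3, and 9 male and 13 female cells in #e4.

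*Kdr* formed an arch over this axis. It had 407 and 451 CPM (male and female) in #e2, 2347 and 2333 CPM in #e5, 2456 and 2844 CPM in #e8, and 2743 and 2807 CPM in #e3. It then stood at 1180 and 1799 CPM in #e6, 1025 and 744 CPM in #e7 and 585 and 636 CPM in #e1. The 3 clusters #e5, e8 and e3 lay above all others in both pools, and the order among these 3 differed between the pools. Against #e1, e2 and e4, *Kdr* was higher in sinusoidal clusters by 1.87 ± 0.16 on the log2 scale (edgeR adjusted p = 9.81e-06), where 0.759% of all genes were called higher. The other call in this comparison was *Vegfd*, lower by a fitted -4.88 ± 1.21 (adjusted p = 0.0482, or 0.0725 with the pool as a block, 0.0520 with thinned cells and 0.124 without 1 male lymphatic cell, edgeR), where 1.16% of genes were called lower. *Vegfd* did not pass 1.98 CPM in any sinusoidal sum, and its value was -2.17 without the male pool and -6.58 without the female pool. With #e7 set beside the veins instead, *Kdr* stayed called (1.81 ± 0.15), *Vegfd* did not (-3.44) and *Vegfb* was called higher (adjusted p = 0.0178, edgeR). No fold is given for *Vegfb*, because it had no counts in #e4, which is part of the reference.

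Both ends of the axis were low for *Kdr*. It was called lower in portal vein cells (-1.68 ± 0.25, adjusted p = 0.00209, edgeR) and in central vein cells (-1.06 ± 0.24, adjusted p = 0.0387, edgeR), comparisons in which only 0.0819% and 0.0873% of all genes were called lower. *Flt4* was also called lower in central vein cells, at -2.11 ± 0.39. Its levels there were 251 and 135 CPM, against 488 and 270 CPM in #e2, 1004 and 1026 CPM in #e5, 995 and 1102 CPM in #e3 and 2298 and 1253 CPM in #e8. The *Kdr* call in central vein cells did not hold with DESeq2, without the filter on low counts, with cells thinned to 50000 counts or with sums per plate (-0.63 to -1.24), while the *Flt4* call did.

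*Flt1*, the high-affinity receptor that signals weakly, had no such arch. It had 692 and 664 CPM in #e2, between 376 and 918 CPM in the sums of #e5, e8, e3 and e6, 847 and 1143 CPM in #e7 and 548 and 640 CPM in #e1. It was called neither in #e2 (0.36 ± 0.53) nor in #e1 (0.18 ± 0.53). *Nrp1* had 708 and 966 CPM in #e2, 1272 to 1908 CPM in #e5, e8, e3 and e6, and 896 to 1118 CPM in #e7 and #e1. *Nrp2* had 365 to 597 CPM in #e5, e8 and e3 and 113 to 211 CPM in #e2 and #e1. Neither neuropilin was called in any of these 3 comparisons. In sinusoidal clusters, however, both *Nrp1* (1.54 ± 0.40, adjusted p = 0.0579, edgeR) and *Flt1* (1.21 ± 0.39, adjusted p = 0.151, edgeR) came to be called higher once a single lymphatic cell, described with the lymphatic cluster, was left out after seeing the data (2.44 ± 0.21 and 2.06 ± 0.24). Both were also called with at least 10 cells per sum (2.68 and 2.23), with sums per plate (2.65 and 2.14), with thinned cells (1.79 and 1.41) and without the filter on low counts (1.52 and 1.19), and *Nrp1* with DESeq2 (1.47).

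**Figure D2:**
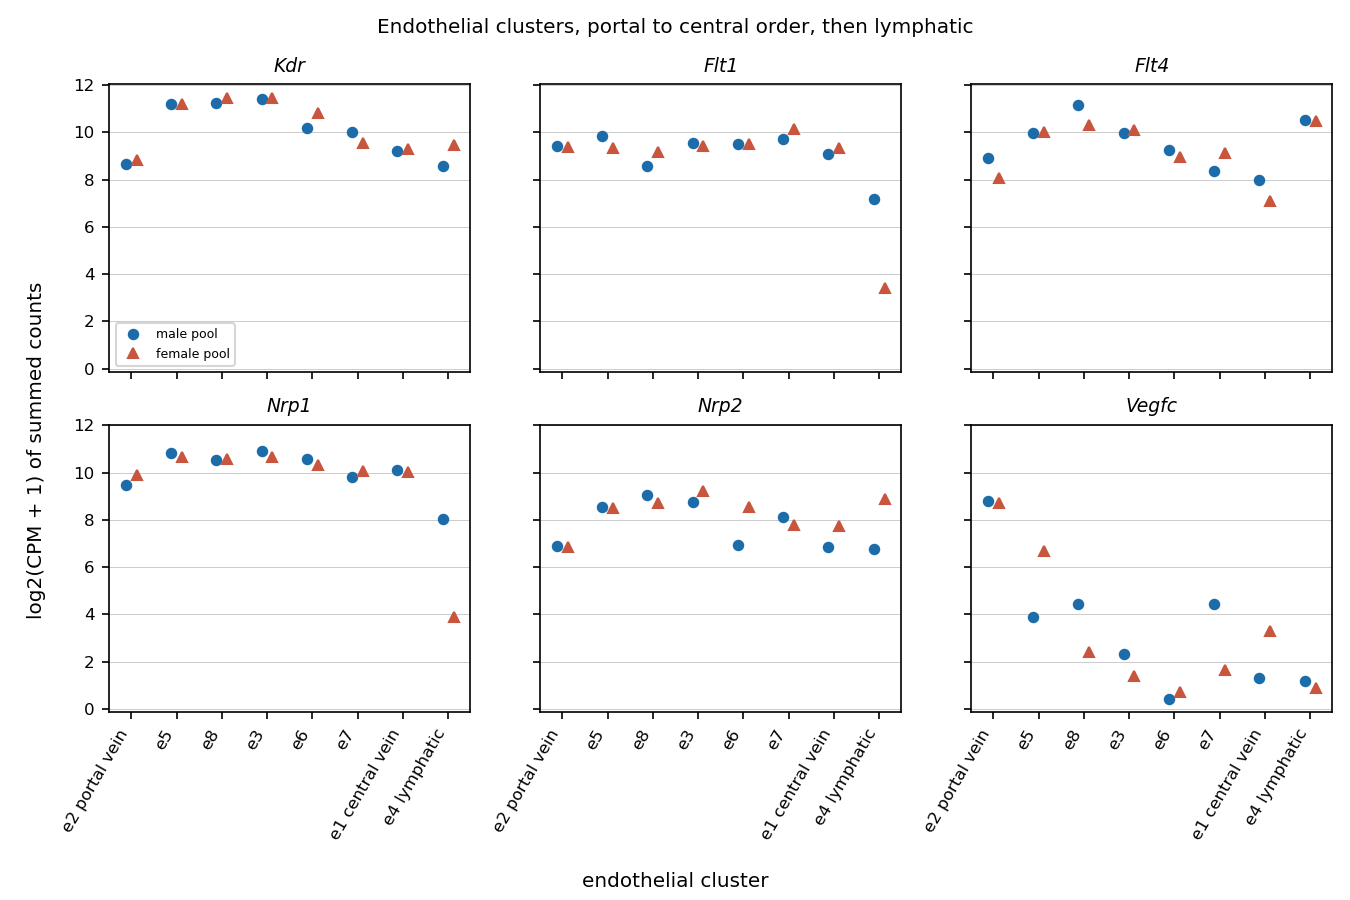
Levels, as log2(CPM + 1), of the 5 receptor genes and *Vegfc* in the endothelial clusters in portal to central order with the lymphatic cluster last, with 1 point per pool (circles male, triangles female). *Kdr* is highest in #e5, e8 and e3, *Flt1* lies between 376 and 1143 CPM in the blood vessel clusters, and *Vegfc* is highest in #e2.

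The balance of the receptors was compared per kilobase of exon within each pool. The ratio of *Flt1* to *Kdr* was 1.14 and 0.985 (male and female) in #e2, 0.261 and 0.187 in #e5, 0.102 and 0.134 in #e8, and 0.184 and 0.162 in #e3. It was 0.414 and 0.270 in #e6, 0.553 and 1.03 in #e7, and 0.627 and 0.674 in #e1. In both pools every vein cluster, #e7 included, lay above every one of #e5, e8, e3 and e6. In #e4 it was 0.254 and 0.00899, the male value with the 1 cell described below. The ratio of *Flt4* to *Kdr* was 4.31 and 2.21 in the lymphatic cluster and between 0.234 and 1.31 in the others.

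**Figure D3:**
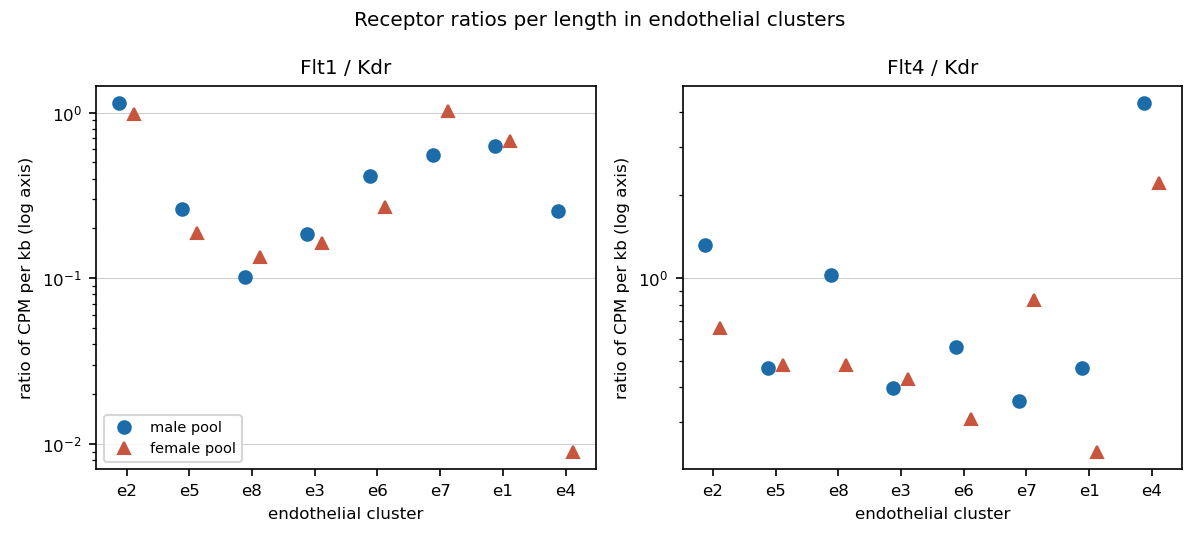
Ratio of *Flt1* to *Kdr* (left) and of *Flt4* to *Kdr* (right), from CPM per kilobase of exon on log axes, in each endothelial cluster and pool (circles male, triangles female). The first ratio is near 1 in #e2, and among the blood vessel clusters it is lowest in #e8, while the female #e4 value (0.00899) lies below all others, and the second is highest in the lymphatic cluster #e4.

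Detection was also counted cell by cell. At least 20 counts of all 3 receptor kinases were found together in 82.2% of male #e3 cells (189 of 230), in 62.5% and 58.1% of male and female #e5 cells, in 21 of 35 male and 74 of 120 female #e8 cells and in 17 of 34 male and 46 of 78 female #e6 cells. The same held for 15.9% and 21.9% of #e1 cells, 11.8% and 26.7% of #e2 cells and 7.04% and 11.4% of #e7 cells. In both pools the vein clusters thus had a smaller share of cells with the full set than #e5, e8 and e6.

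*Vegfc*, the lymphatic ligand, was the member that marked the portal vein. It had 439 and 424 CPM in #e2, 13.9 and 103 CPM in #e5 and at most 20.6 CPM in any sum of the other clusters. Its log2 difference in #e2 was 6.44 ± 0.73 (adjusted p = 0.00018, edgeR), where 1.85% of all genes were called higher. It reached 20 counts in 30 of 68 male and 32 of 60 female #e2 cells. With all cells thinned to 50000 counts the levels were 423 and 361 CPM. In the same cluster, 10 male and 15 female cells held at least 20 counts of both *Vegfc* and its receptor gene *Flt4*.

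The community setting of the authors' clustering splits #e2 into #e2c and the peribiliary plexus cells #e5c, of which there were only 5 male and 9 female cells. In #e5c, *Vegfc* had 776 and 94.3 CPM, *Nrp1* 1163 and 2593 CPM, *Flt1* 769 and 1591 CPM, and *Kdr* 374 and 949 CPM. *Flt4* had 0.650 and 387 CPM. The 2 pools lay far apart for all of these genes. *Vegfc* was called higher (5.64 ± 0.70, adjusted p = 9.22e-05, edgeR), against 4.11% of all genes, and the value was 4.09 from the female pool alone and 6.74 from the male pool alone. The call was lost with sums per plate (3.11). *Flt1* and *Nrp1* were called higher per plate (2.32 and 2.14) and without the filter on low counts (1.30 and 1.11). *Flt4* was called lower with thinned cells (-2.62) and without that filter (-1.60), and *Vegfb* was called lower with DESeq2.

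The 4 lymphatic marker genes used here are among those by which the authors named #e4, so their level there is no check. All 4 were detected, with summed levels of 5748 and 5841 CPM in the male and female lymphatic cells (#e4). *Flt4* had 1489 and 1426 CPM there, *Kdr* 379 and 706 CPM, and *Nrp2* 107 and 467 CPM. *Flt1* had 144 and 9.49 CPM, *Nrp1* 262 and 13.7 CPM, *Vegfd* 72.4 and 0 CPM and *Pgf* 45.5 and 1.95 CPM. A single male cell with 408861 counts held 90.9% of the *Flt1*, 91.4% of the *Nrp1*, 96.6% of the *Vegfd* and 84.9% of the *Pgf* counts of the 9 male cells, but only 10.6% of the *Flt4* counts and none of the *Nrp2* counts. Without this cell the male levels were 17.6 CPM for *Flt1*, 30.1 CPM for *Nrp1*, 3.35 CPM for *Vegfd* and 9.21 CPM for *Pgf*.

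In the lymphatic cluster, *Flt4* was higher than in the other endothelial clusters by 1.23 ± 0.30 (adjusted p = 0.0175, edgeR), and 3 members were called higher where 4.92% of all genes were. Called lower were *Flt1* (-3.13 ± 0.70), *Nrp1* (-3.16 ± 0.71), *Kdr* (-1.27 ± 0.25) and *Vegfb*, against 1.88% of all genes. *Vegfb* had 0 counts in all 22 cells, which allows a share of up to 13.6% of cells with a count, so no fold is given (adjusted p = 0.0449, or 0.0723 with the pool as a block, 0.136 with thinned cells and 0.0552 without the filter on low counts, edgeR). The other genes called higher were *Pgf* (9.23 ± 1.34) and *Vegfd* (6.77 ± 1.25), and *Vegfd* was not called with the pool as a block (adjusted p = 0.0510, edgeR) or without that cell (2.28). Without the cell, which was left out after seeing the data, *Flt1* was at -5.63, *Nrp1* at -5.81, *Flt4* at 1.44, *Kdr* at -1.26 and *Pgf* at 7.18, all still called. From the female pool alone the differences were -6.30 for *Flt1*, -6.62 for *Nrp1* and 6.48 for *Pgf*, and from the male pool alone -2.14, -2.21 and 11.1. The *Pgf* values are fitted ones that rest on few counts, 73 in the male and 7 in the female lymphatic cells and at most 10 in any other endothelial sum, several of which had 0. With sums of at least 10 cells or per plate, *Flt1* and *Nrp1* were the members still called. *Flt4* (1.21 and 1.03), *Kdr* (-0.87 and -0.94), *Vegfb* and *Vegfd* were then not called, nor was *Pgf* with at least 10 cells (5.60), while per plate it had no fitted value, and *Kdr* was also lost with DESeq2 (-0.87).

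Mesenchymal cells were compared by the authors' clusters of fibroblasts (#m1, m4, m8, m9 and m10), hepatic stellate cells (HSC, #m3) and mural cells (#m2, m5, m6 and m7). *Pgf* was concentrated in arterial smooth muscle cells (#m2), with 424 and 540 CPM in the male and female cells. It had 98.6 and 304 CPM in the portal vein mural cells #m7, 82.8 and 131 CPM in fibroblasts #m1, 1.08 and 59.7 CPM in #m5, and 2.66 and 9.02 CPM in HSC. The #m2 values lay above those of every other mesenchymal cluster. At least 20 counts were found in 44 of 127 male and 68 of 110 female #m2 cells. Against the other mural clusters the log2 difference was 3.05 ± 0.88, which did not pass the threshold (adjusted p = 0.0933, edgeR) but did with thinned cells (3.20) and without the filter on low counts (3.07). *Pgf* was called lower in HSC with DESeq2 (-3.50), without that filter (-3.62) and per plate (-4.33). In mural cells against the other mesenchymal clusters it was called higher without the filter (1.60).

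*Vegfd*, in contrast to *Pgf*, was low in #m2. It had 562 and 256 CPM in #m5, 445 and 218 CPM in #m1, 409 CPM in the male cells of #m10, and 69.1 and 129 CPM in HSC, but only 11.6 and 13.8 CPM in #m2. The #m2 values were the lowest of the 10 clusters in the male pool and of the 8 with a female sum. *Vegfd* was lower in #m2 than in the other mural clusters by 3.54 on the log2 scale (-3.54 ± 0.65, adjusted p = 0.00605, edgeR), where 0.894% of all genes were called lower. The value from the female pool alone was -2.87, and with sums per plate the call was lost (-3.69).

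*Vegfc* had 182 and 144 CPM in #m5, 181 and 133 CPM in #m1, 140 and 143 CPM in #m9, 72.8 and 197 CPM in #m7, 90.8 and 67.3 CPM in HSC, and 28.7 and 2.64 CPM in #m2. It was called in none of the mesenchymal comparisons by edgeR with all counts, but with thinned cells it was called lower in #m2 (-3.24 ± 0.84). *Vegfc* and *Vegfd* were found together at 20 counts or more in 87 of 546 male and 35 of 135 female fibroblasts, and in 0 of 127 male and 0 of 110 female #m2 cells. At least 1 of the 5 ligands reached 20 counts in 61.7% of male and 76.3% of female fibroblasts.

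**Figure D4:**
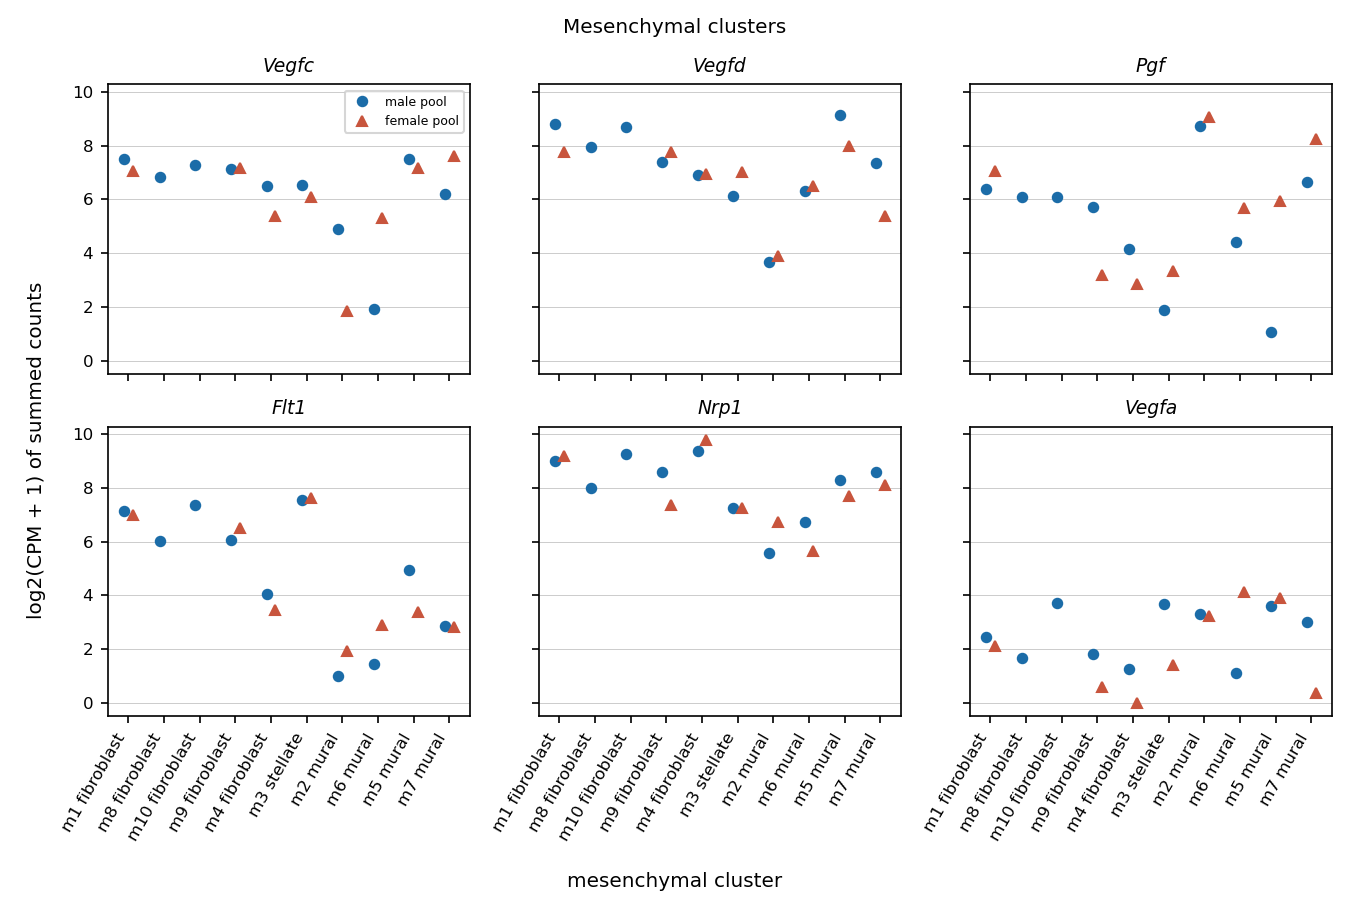
Levels, as log2(CPM + 1), of 4 ligands and 2 receptors in the 10 mesenchymal clusters, with 1 point per pool (circles male, triangles female) and sums of under 5 cells left out. *Pgf* is highest and *Vegfd* lowest in #m2, and *Flt1* is at most 29.8 CPM in the mural clusters and at most 15.5 CPM in #m4.

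Among receptors, *Flt1* was found in HSC and fibroblasts. It had 186 and 196 CPM in #m3, 162 CPM in the male cells of #m10, 140 and 127 CPM in #m1, 66.4 and 88.9 CPM in #m9, 15.5 and 9.86 CPM in the peribiliary fibroblasts #m4, and at most 29.8 CPM in any mural sum. Within #m3, the capsular stellate cells (#m3c) had 254 and 234 CPM and the other stellate cells (#m7c) 97.4 CPM in the male pool. *Flt1* was higher in #m3 than in the other mesenchymal clusters by 3.0 ± 0.51 (adjusted p = 0.00509, edgeR), where 2.19% of all genes were called higher, and by 3.70 from the female pool alone. It reached 20 counts in 37 of 161 male and 10 of 26 female HSC. In #m3c, where *Flt1* was highest, *Kdr* stood at 9.71 and 11.3 CPM, and the 8 endothelial markers, all detected, summed to 48.1 and 298 CPM.

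*Nrp1* had 669 and 882 CPM in #m4, 613 CPM in #m10, 505 and 583 CPM in #m1 and 46.7 and 105 CPM in #m2. In fibroblasts against the other mesenchymal clusters 3 members were called higher, against 2.04% of all genes: *Flt1* (2.65 ± 0.42), *Nrp1* (1.68 ± 0.25) and *Vegfd* (1.58 ± 0.30), with edgeR adjusted p of 0.00109, 0.000584 and 0.00602. In mural cells the same 3 members were called lower, against 2.07% of all genes, at -3.89 ± 0.47, -1.39 ± 0.26 and -1.39 ± 0.31. These comparisons share their clusters and are not separate evidence. With sums per plate, *Flt1* (2.75) and *Vegfd* (1.79) were no longer called in fibroblasts, nor *Nrp1* (-1.61) and *Vegfd* (-1.39) in mural cells. From the female pool alone the *Flt1* value in fibroblasts was 2.06. *Nrp2* in fibroblasts (2.75 ± 0.75, adjusted p = 0.0593, edgeR) passed the threshold with DESeq2, thinned cells, at least 10 cells per sum or no filter on low counts (2.68 to 2.76). In #m4 against the other fibroblasts 0 members were called by edgeR, against 0.0626% of all genes, 4 had an unadjusted p under 0.05, and DESeq2 called 1 (*Flt1*, -3.02).

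Cells with endothelial transcripts also lay inside the mesenchymal class. The 3 male and 6 female cells of #m14c, part of #m1, had 6205 and 4140 CPM of the 8 endothelial markers, 954 and 612 CPM of *Kdr* and 254 and 332 CPM of *Pgf*. Without them *Kdr* in #m1 fell from 48.5 and 47.3 CPM to 2.9 and 12.7 CPM, and all member calls in the class and mesenchymal comparisons were kept. The 4 male and 2 female mesothelial cells (#m16c), fewer than the minimum of 5 for a sum, had 160 and 508 CPM of *Kdr*, with 867 and 749 CPM of the 8 endothelial markers but only 12 and 1.2 CPM of *Pecam1* and 3.6 and 0 CPM of *Stab2* among them.

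In epithelial cells, *Vegfa* belonged to cholangiocytes (#p2), the lining cells of the bile ducts, and not to hepatocytes. It had 46.2 and 12.8 CPM in male and female #p2 cells and 0.586 CPM in the 201 male cells of the 4 hepatocyte clusters. At least 20 counts were found in 35 of 157 male cholangiocytes (22.3%, exact 95% interval 16 to 29.6%), in 1 of 37 female cholangiocytes and in 0 of 201 male hepatocytes. The female cholangiocytes had fewer counts, in a pool with a median of 88932 against 215239, and only 2 female hepatocytes were present. *Vegfa* was higher in #p2 than in the hepatocyte clusters by 5.53 ± 1.15 (adjusted p = 0.000593, edgeR), but 28.6% of all genes were called higher in this comparison, and the call was lost with sums per plate (6.17). *Vegfb* reached 131 CPM in the male cells of hepatocyte cluster #p1, where 47.3% of its counts came from 1 cell and 5 of 62 cells had at least 20 counts.

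Immune cells carried *Nrp1* and little else of the family. *Nrp1* had 167 and 254 CPM in #i1, 48.2 and 168 CPM in #i3 and 215 CPM in the female cells of #i6. It had 170 CPM in the male cells of #i2, which the authors annotated mainly as monocytes, and 30.0 CPM in the male B cells of #i5. The female #i1 value came from 9 cells, of which 1 reached 20 counts. This sum had 1499 CPM of the 8 endothelial markers, against 453 CPM in male #i1. In #i7, 87 of 163 female cells had at least 20 counts of *Nrp1* without as many of *Nrp2*. In Kupffer cell clusters against #i2 and #i5, 0 members were called by edgeR, against 2.35% of all genes, and 0 had an unadjusted p under 0.05 or were called by DESeq2, although *Nrp1* was called with sums per plate (2.63 ± 0.74). The 6 male and 20 female #i9c cells had 948 and 996 CPM of *Kdr* and 232 and 292 CPM of *Flt1*, and endothelial marker sums of 3132 and 5243 CPM. Without them the immune pools had 15.8 and 15.7 CPM of *Kdr* in place of 31.9 and 47.6 CPM, and 4.68 and 5.41 CPM of *Flt1* in place of 8.60 and 14.7 CPM. *Nrp1* stayed at 133 and 180 CPM. *Vegfc* was called lower in immune cells with DESeq2 (-3.81), without the filter on low counts (-3.90) and without the male immune pool (-8.83). Without #i9c, *Nrp2* (-3.39) and *Vegfd* (-4.25) were called lower in immune cells as well. *Nrp2* was also called lower with #i9c kept, with DESeq2 (-1.79), without the filter on low counts (-1.86), per plate (-2.41), with the pool as a block (-1.71) and without the female epithelial or female mesenchymal pool (both -1.96), but not with all pools by edgeR (-1.78 ± 0.50, adjusted p = 0.0532). *Flt1* in mesenchymal cells (1.0 ± 0.37, adjusted p = 0.140, edgeR) was called higher without #i9c (1.39) and per plate (1.70).

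The levels of each gene were also ordered over the 23 annotated cell types with at least 5 cells in a pool. For *Kdr* the order began with the sinusoid cells, then the type annotated lastSinusoid (#e6), the #i9c cells and the central vein cells, with no overlap of the pools between neighbours. Central vein, peribiliary plexus and lymphatic cells followed with overlapping pools. For *Flt4* lymphatic cells came first and sinusoid cells next, without overlap. For *Pgf* arterial smooth muscle cells stood alone at the top, and for *Vegfc* portal vein and peribiliary plexus cells overlapped in first place.

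Other genes of the pathway were taken from 6 lists of 65 genes in all. Of 8 genes that code for partners of the receptors, 4 were higher in endothelial cells and 1 was lower, where 5.33% and 2.96% of all genes were. *Emcn* (6.80 ± 0.50), which codes for an endothelial mucin, *Ptprb* (6.47), which codes for a phosphatase acting on KDR and TIE2, *Efnb2* (5.05) and *Cdh5* (4.89, a gene whose protein was used in the sort) were the 4 with the largest differences. The median of the list was 3.43 on the log2 scale, against 0.04 over all genes tested. Of 12 semaphorins and plexins, 4 were higher and 0 lower: *Sema3d* (5.32), *Plxna2* (4.25), *Sema3f* (3.39) and *Plxnd1* (3.38), with a list median of 2.81. Of 23 genes of the intracellular relay, 7 were higher, *Nos3* (6.24), the endothelial nitric oxide synthase, first among them, and *Src* was lower (-3.97), with a median of 1.29. Of 9 genes known to respond to VEGF in endothelium, *Esm1* (7.57), *Dll4* (6.27) and *Hlx* (2.42) were higher, with a list median of 1.88. Of 8 oxygen-sensing genes 1 was higher (*Epas1*, 2.93), where 5.33% of all genes were, with a list median of 0.21.

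Among 5 genes for the maturation of VEGF-C, *Ccbe1* (6.44) and *Adamts14* (4.89), both of which act in its proteolytic processing, were higher in mesenchymal cells, the class in which *Vegfc* was called and in which 9.47% of all genes were higher. The list median was 2.79, against 0.02 over all genes tested in this comparison. Of the same list, 0 genes were called in #e2 (median -0.78) and 1 was higher in #e1 (median 2.26). In immune cells 1 was higher, and in epithelial cells 1 was higher and 1 lower. In portal vein cells, where *Vegfc* was called, *Esm1* (4.47) and *Dll4* (3.58) of the responsive genes were higher. Of the semaphorins, *Sema3g* and *Sema3c* were called higher, with 9.86 and 25.1 CPM in the male #e2 cells and 0 counts of either gene in the female #e2 cells. None of the 23 relay genes or the 8 receptor partners was called, where 1.85% of all genes were called higher and 0.0819% lower. In sinusoidal clusters, where *Kdr* was called, genes called higher included *Plxnd1* (1.11), *Ptprb* (1.24) and *Fyn* (1.92). In lymphatic cells *Ptprb* (-2.54) and *Plxnd1* (-1.71) were lower and *Sema3a* (7.64) was higher.

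The genes whose pattern was most like that of each member were sought over 50 cluster and pool sums and 17858 genes, as a description without a test, since the sums share pools and depth. *Kdr* was nearest to *Ptprb* (r = 0.965), followed by *Cd300lg* and *Mmrn2*. *Flt4* was nearest to *Ccm2l* (0.948), *Flt1* to *Clec14a* (0.899), *Nrp1* to *Nav1* (0.819) and *Nrp2* to *Mapk12* (0.815). Among the ligands, *Vegfd* was nearest to *Podn* (0.971), *Pgf* to *Atp1b2* (0.937) and *Vegfc* to *Col8a1* (0.795). The values for *Vegfa* and *Vegfb* were lower, with *Ppil6* (0.621) and *Smim8* (0.626) as their nearest genes. Within the family the closest pair was *Kdr* and *Flt4* (0.906), followed by *Flt1* and *Nrp1* (0.793) and by *Flt4* and *Nrp2* (0.788). The closest pairs among the ligands were *Vegfd* and *Pgf* (0.726) and *Vegfc* and *Vegfd* (0.706).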

How the data were processed

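The authors mapped single reads of 50 bases and deposited raw counts per gene and cell without normalization. Per the labels, the builds named are GRCm38 and mm10 and the tools Bowtie, Bowtie2, featureCounts and Subread, with no versions. The kit does not mark strand. The authors removed poor and mixed cells before deposit, and no doublet caller was run here. Clusters and annotation are theirs (pagoda2). Of 46609 rows, 92 ERCC spike-ins were left out.

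Counts were summed per class, or per cluster and pool with at least 5 cells, and fitted with edgeR 4.0.16 in R 4.3.3 (TMM, filterByExpr, quasi-likelihood test, Benjamini-Hochberg adjustment over all genes tested), with 1 mean per cluster and equally weighted contrasts. DESeq2 1.42.0 was an alternative, as were cells thinned to 50000 counts (13 cells had fewer), omission of the low-count filter, a minimum of 10 cells in a sum, sums per plate, a pool block and each pool left out. The fits were tested on simulated data. Levels, shares with exact 95% binomial intervals, and detection limits of 3 counts were computed in Python 3.11.15. A share needed at least 20 counts unless 1 is stated.

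The sums of a class come from the same male and female pools of cells, which pairs them by the sample list. Male minus female deviations of its clusters correlated on average at 0.0461 in endothelial (28 pairs of clusters), 0.110 in mesenchymal (28) and 0.0278 in immune cells (3).

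Named genes were the 10 members, the 3 genes most like each over the sums (at least 10 CPM in 1 or more sums), and up to 4 called genes per pathway list with the largest differences. A result that this rule names is not reported here. Members and lists were chosen with earlier results of these data known.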

Additional observations from a re-analysis of the deposited data

Results flagged for a closer look

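*Vegfd* in lymphatic cells (#e4) had fitted values of opposite sign in the male and female cells against the other endothelial clusters: its fitted log2 difference was 8.87 for male cells and -4.44 for female cells. The difference between the pools was not tested. In the male pool 96.6% of the *Vegfd* counts of the 9 cells came from 1 cell, and in the female pool the gene had 0 counts in all 13 cells, so the female value is a fitted one that depends on the prior count and is no measured fold. Without that cell the value over both pools was 2.28 and was not called.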

How the results depend on the processing

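The numbers of members called under the alternatives are set beside those of the report. Without the filter on low counts, 8 were called in endothelial cells (5 in the report), 5 in immune cells (3), 9 in epithelial cells (5), 4 in sinusoidal clusters (2), 4 in #e5c (1), 2 in #m3 (1), 2 in #m2 (1) and 1 in #e1 (2). With DESeq2 they were 5 in immune cells, 8 in epithelial cells, 1 in #e1, 2 in #e5c, 2 in #m3, 5 in mural cells (3), 2 in #m2 and 1 in #m4 (0). With thinned cells they were 1 in #e1, 2 in #e5c and 3 in #m2. With sums per plate they were 8 in epithelial cells, 1 in #e1, 2 in #e4 (7), 2 in #e5c, 2 in #m3, 1 in mural cells, 1 in fibroblasts (3), 0 in #m2, 0 in #p2 (1) and 1 in Kupffer cells (0). With at least 10 cells per sum 2 were called in #e4, and without #i9c 3 in epithelial cells. Over the fits that leave out 1 pool, 2 to 5 members were called in mesenchymal cells, 1 to 4 in immune cells and 2 to 6 in epithelial cells. The fitted value of *Vegfd* in #e4, where the female cells had 0 counts, turned to -5.86 with at least 10 cells per sum, -4.77 per plate and -4.44 without the male pool, and was 8.87 without the female pool.

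With the pool as a replicate block, 1 member was called in sinusoidal clusters (*Kdr*) and 5 in #e4, and no other call of the cluster comparisons that could be fitted was lost. In the class comparisons, where the block was added after seeing the data, no call was lost and *Kdr* in epithelial cells (-2.37) and *Nrp2* in immune cells (-1.71) were called as well. The block could not be fitted for epithelial clusters, and #e5c had too few cells for sums of at least 10. The cause of these changes was not tested. Of all alternatives to these numbers, 105 stayed within 1.5 times and 40 did not, and of those to single values 431 kept their direction and side of the threshold or moved by less than their spread, 65 lost the call, 32 moved further and 3 reversed. *Vegfa* and *Vegfb* had 0 counts in most cells, which limits what these sums can show for them.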
